A study of Homo sapiens with 12 samples.

Results

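Vimentin and the tubulins that form the microtubule lattice were examined as mRNA in GC-sensitive MM1S and GC-resistant MM1R cells, with and without withaferin A (WA). The 10 genes were VIM, the α-tubulin genes TUBA1A and TUBA1C, and the β-tubulin genes TUBB, TUBB2A, TUBB2B, TUBB3, TUBB4A, TUBB4B and TUBB6, picked by symbol out of the 43735 rows of the raw count table. Both lines are multiple myeloma lines that came from the same patient, and GC stands for glucocorticoid. There were 4 groups of 3 cultures: MM1S untreated (UT), MM1S given WA at 1 µM for 3 h, MM1R untreated, and MM1R given the same WA exposure. The MM1S cultures were at passages 16, 22 and 23 and the MM1R cultures at passages 4, 6 and 7, so that passage and line cannot be told apart.

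Vimentin is a type III intermediate filament protein, typical of mesenchymal and blood-derived cells, and WA, a steroidal lactone from Withania somnifera, is known to bind it covalently at a cysteine. α- and β-tubulin pair into heterodimers that polymerise into microtubules, and a cell draws on several nearly identical genes, called isotypes, for each partner. Tubulin mRNA is known to be controlled by its own product: when free tubulin dimers accumulate, ribosome-bound tubulin mRNA is degraded after the factor TTC5 recognises the first residues of the nascent chain.

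The bases that encode these first residues are shown first, with VIM beside the tubulins. Whether this control had a part in the changes with WA was not tested. The first 30 coding bases from the GRCh37 annotation are printed 5′ to 3′, with the start codon and the next codons (12 bases) in capitals.
TUBA1A: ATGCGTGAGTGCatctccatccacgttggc
TUBA1C: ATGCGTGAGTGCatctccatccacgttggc
TUBB: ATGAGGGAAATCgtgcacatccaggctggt
TUBB4B: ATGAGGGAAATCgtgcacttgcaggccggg
TUBB2A: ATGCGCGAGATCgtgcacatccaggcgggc
TUBB2B: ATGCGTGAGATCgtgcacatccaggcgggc
TUBB4A: ATGCGGGAGATCgtgcacctgcaggccggc
VIM: ATGTCCACCAGGtccgtgtcctcgtcctcc
TUBA1A and TUBA1C were identical over these 30 bases. Over the whole coding sequence TUBA1A matched TUBA1C at 95.87% and its abundant relative TUBA1B at 97.2% of aligned bases. TUBB2A matched TUBB2B at 98.13%, whereas TUBB matched TUBB4B at 84.38%. Reads were 50 bases long, and exon windows of 50 bases were searched on both strands of the primary GRCh37 assembly. The share found nowhere else was 31.3% for TUBB2A, 41.5% for TUBB2B, 49.3% for TUBA1A, 73.0% for TUBA1C, 77.9% for TUBB, 87.6% for TUBB4B, 89.9% for TUBB3, 92.8% for TUBB4A, 98.8% for TUBB6 and 100% for VIM. For TUBA1B it was 34.9%. Values of TUBB2A, TUBB2B and TUBA1A are therefore uncertain wherever the counting split reads between near copies, and how it treated such reads is not given in the sources used here. The value of TUBB is uncertain as well. Its symbol had several numbered rows in the counts, described below, and copies outside the primary assembly were not searched. The share of 77.9% may therefore not describe how TUBB was counted.

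In GRCh37 coordinates VIM lies at chr10:17270240-17279592 on the + strand with 10 exons, and each tubulin member has 4 exons. TUBA1A (chr12:49578469-49582863, - strand) and TUBA1C (chr12:49582519-49668383, + strand) overlap at their ends on opposite strands, and the strand setting of the counting is not given. TUBB2A (chr6:3153731-3157778) and TUBB2B (chr6:3223558-3231964) lie near each other on the - strand. TUBB4A lies at chr19:6494330-6502859 on the - strand, TUBB4B at chr9:140135739-140138159, TUBB3 at chr16:89987800-90005169, TUBB6 at chr18:12307668-12344319 and TUBB at chr6:30685212-30693315, all 4 on the + strand.

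Libraries held 17625110 to 19368343 counted reads, and 14085 genes passed the filter on low counts. SDC1 and TNFRSF17, which mark plasma cells, had at least 3844 reads in every library, and the 8 plasma cell markers summed to between 4684 and 6294 CPM (counts scaled for library size). The 4 monocyte or macrophage markers summed to at most 0.669 CPM. The 4 T cell markers summed to 3.83 to 7.86 CPM in untreated MM1S and to 6.51 to 11.9 CPM in untreated MM1R cultures. All 12 libraries stood apart from their replicates by more than counting noise. No source beyond the study's methods describes the 3 cultures of a group, and these call them biologically independent. In bulk RNA, fewer cells that express a gene and less RNA per cell cannot be told apart.

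Of the 10 genes, 8 passed the filter on low counts. TUBB6 had 0 to 8 reads in any library and was not tested. The row with the bare symbol TUBB was at 0 in all 12 libraries. Its reads lay in numbered rows of the same symbol: TUBB_2 had 20210 reads in all and 1034 to 2748 per library, TUBB_6 had 213 reads, while TUBB_3, TUBB_4 and TUBB_5 had 1, 2 and 1 reads. Neighbouring genes of TUBB were numbered in the same way, FLOT1 and MDC1 with 8 rows each, and NRM and PPP1R18 with 7 each. TUBB is therefore described by the row TUBB_2, chosen after its values were seen, and by the sum of all TUBB rows. Over the 12 libraries FLOT1 had 239 reads in its bare row and 76 in its other rows, and MDC1 466 and 19. NRM had 11 and 0, and PPP1R18 0 and 12. Whether reads of these genes or of TUBB were lost in the counting was not tested, so the level of TUBB may be too low.

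Levels were taken per kilobase of exon, which allows for exon length but not for the differing shares of unique windows. The order between genes is therefore uncertain, in particular for TUBB and for genes with few unique windows. TUBB4B and VIM led the 10 genes in untreated MM1R cells, with mean levels of 309.9 ± 80.7 and 272 ± 53.6 CPM per kb (SD, n = 3). The cultures of these 2 genes overlapped. TUBA1C followed at 109 ± 32.1 CPM per kb and TUBB, all rows summed, at 46.3 ± 17.5 CPM per kb. TUBB4A at 10.0 ± 1.30 and TUBA1A at 9.70 ± 1.97 CPM per kb overlapped, and below them came TUBB2B at 6.66 ± 0.606, TUBB2A at 2.43 ± 0.175, TUBB3 at 0.505 ± 0.369 and TUBB6 at 0.117 ± 0.0269 CPM per kb. In untreated MM1S cells the order at the top was TUBB4B (326 ± 26.8 CPM per kb), VIM (147 ± 60.0), TUBA1C (119 ± 18.1) and TUBB (43.7 ± 5.79), with VIM and TUBA1C overlapping. The order differed between the lines lower down: TUBA1A was at 17.6 ± 1.65 CPM per kb, and TUBB4A was next to last at 0.605 ± 0.103 CPM per kb, where its cultures overlapped those of TUBB3. Outside the 10 genes, the α-tubulin TUBA1B stood above every member, at 1341 ± 164 CPM per kb in untreated MM1S and 1306 ± 403 CPM per kb in untreated MM1R cells. The levels per exon length of the genes in the 4 groups are plotted on a log axis.

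**Figure D1:**
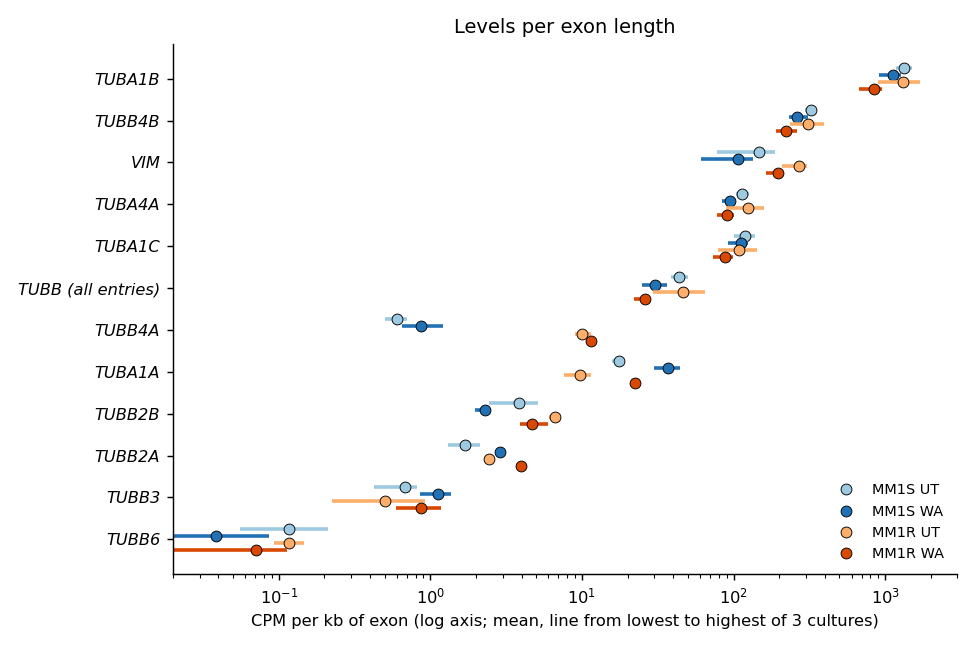
Levels per exon length of the members and of TUBA1B and TUBA4A, as CPM per kb of exon on a log axis. Points are means of 3 cultures and lines run from the lowest to the highest culture, cut at the left edge where a culture had no read. TUBB4A is the gene whose MM1S and MM1R points lie farthest apart, at 0.605 and 10.0 CPM per kb in untreated cells.

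Cytoskeletal mRNAs were compared between the untreated lines. GC sensitivity and GC resistance were each represented by a single line. The tests therefore describe a difference between these lines and cannot assign it to GC resistance. A call needed an edgeR adjusted p under 0.01 as well as a log2 difference of 1 or more in size. By this rule 1.48% of the 14085 tested genes were higher and 1.49% lower in MM1R, and of the 8 tested members 1 was higher (TUBB4A) and 0 were lower (1 lower at an unadjusted p under 0.05 in edgeR, and 0 called lower by DESeq2). Over all genes DESeq2 called 571 in this comparison, against 419 in edgeR. The members' median log2 fold change was 0.23, against 0.01 over all tested genes.

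TUBB4A, the β-tubulin isotype best known from brain and oligodendrocytes, was the member called. In untreated MM1S cells it had 31, 22 and 28 reads at passages 16, 22 and 23, or 1.61, 1.14 and 1.39 CPM. In untreated MM1R cells it had 395, 397 and 449 reads at passages 4, 6 and 7, or 20.6, 21.8 and 26.2 CPM. Every MM1R culture was above every MM1S culture, and the log2 fold change was 4.04 ± 0.22 (SE), a 16.5-fold higher level in MM1R (edgeR's quasi-likelihood test, Benjamini-Hochberg adjusted p = 6.89e-08). Under WA the levels were 2.76, 1.71 and 1.47 CPM in MM1S and 25.1, 26.0 and 26.8 CPM in MM1R, and the log2 fold change between lines was 3.71 ± 0.21 (edgeR adjusted p = 1.09e-07). Within each line the change of TUBB4A with WA did not pass the test, with log2 fold changes of 0.52 ± 0.24 in MM1S (edgeR adjusted p = 0.200) and 0.19 ± 0.18 in MM1R (edgeR adjusted p = 0.548). TUBB4A made up 0.221% of β-tubulin reads in untreated MM1S and 3.66% in untreated MM1R cells. One B cell marker moved the same way: CD79A, a signalling chain of the B cell receptor, had 2 to 5 reads in untreated MM1S and 38 to 70 in untreated MM1R libraries (log2 fold change 4.13, edgeR adjusted p = 1.95e-05). Of the other B cell markers, MS4A1 had no more than 2 reads and PAX5 no more than 3 in any library. Their part in the TUBB4A result was not tested.

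TUBA1A, the α-tubulin isotype of newborn neurons, went the other way between the lines, at 26.5, 31.9 and 29.98 CPM in untreated MM1S and 12.7, 16.9 and 19.1 CPM in untreated MM1R cells. The groups did not overlap, and the log2 fold change of -0.86 ± 0.17 had an edgeR adjusted p of 0.0046 but stayed under the fold limit of the call. Under WA it was -0.70 ± 0.16 (edgeR adjusted p = 0.0129). TUBB2B, a β-tubulin of neuronal migration, had a higher mean in MM1R, 12.8 ± 1.17 against 7.38 ± 2.58 CPM (SD, n = 3), with a log2 fold change of 0.79 ± 0.24 (edgeR adjusted p = 0.0468). Under WA its log2 fold change between lines was 1.02 ± 0.25 (edgeR adjusted p = 0.0175).

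VIM was read at 168, 375 and 405 CPM in the untreated MM1S cultures of passages 16, 22 and 23. It was read at 452, 646 and 657 CPM in the untreated MM1R cultures of passages 4, 6 and 7. Each MM1R culture was above each MM1S culture, and the MM1S culture of passage 16 lay far below the other two. The log2 fold change of 0.89 ± 0.31 did not pass the test (edgeR adjusted p = 0.0850), with a 95% confidence interval of 0.21 to 1.56 before adjustment. Without both MM1S cultures of passage 16 it was 0.58 ± 0.17 (edgeR adjusted p = 0.0311), again under the fold limit. Under WA the line difference of VIM was 0.90 ± 0.31 on the log2 scale (edgeR adjusted p = 0.0810).

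For the most abundant β-tubulin and α-tubulin members no line difference passed the test. TUBB4B had 509 ± 41.9 CPM in untreated MM1S and 484 ± 126 CPM in untreated MM1R (log2 fold change -0.07, 95% confidence interval -0.46 to 0.32). TUBA1C had 336 ± 51.2 against 308 ± 90.6 CPM (log2 fold change -0.13, interval -0.55 to 0.30), and TUBB_2 had 109 ± 14.5 against 115 ± 43.6 CPM (0.08, interval -0.40 to 0.57). TUBB2A had a log2 fold change of 0.53 ± 0.20 (edgeR adjusted p = 0.114) and TUBB3, with 7 to 28 reads per untreated library, one of -0.43 ± 0.47 (edgeR adjusted p = 0.606). The CPM values of each gene in the 12 cultures are plotted by group.

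**Figure D2:**
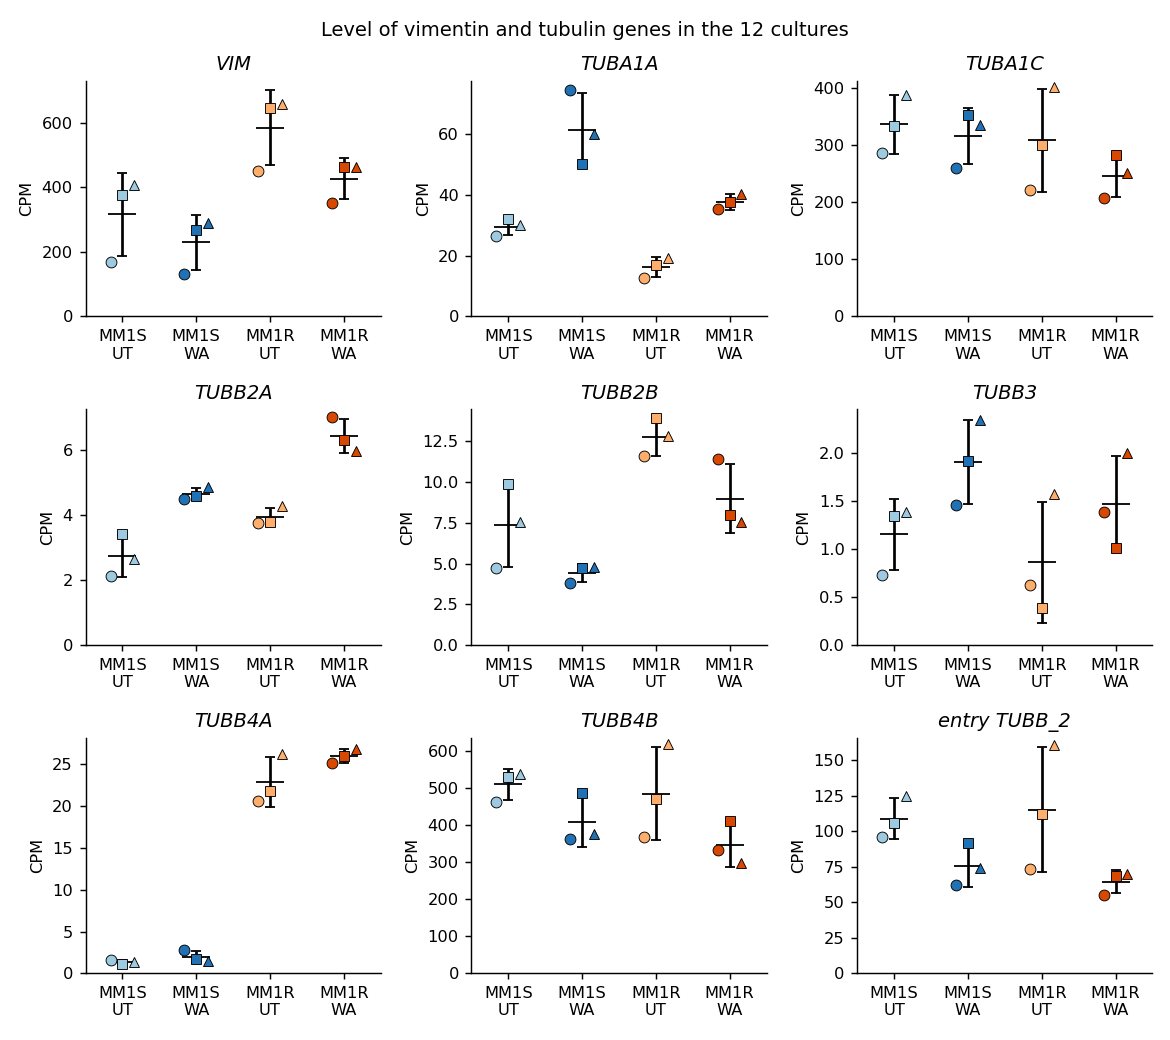
CPM of 8 members and of the row TUBB_2 in the 12 cultures, each panel with a linear axis from 0. Points are cultures, with circle, square and triangle for rising passage number within a line, and bars give the mean and SD of 3 cultures. TUBB4A sits at 1.14 to 2.76 CPM in all MM1S cultures and at 20.6 to 26.8 CPM in all MM1R cultures, and TUBA1A is higher with WA than without in both lines.

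What a 3 h exposure to WA did to these mRNAs was asked within each line, with a gene called at an adjusted p of 0.05. In MM1R 7.55% of tested genes rose and 6.46% fell, and of the 8 tested members 2 rose (TUBA1A and TUBB2A) and 0 fell in edgeR (1 lower at an unadjusted p under 0.05, and 0 called lower by DESeq2). In MM1S 6.25% of tested genes rose and 4.23% fell, and the same 2 members rose, with 0 that fell in edgeR (1 lower at an unadjusted p under 0.05, and 1 called lower by DESeq2, TUBB2B). Over all genes DESeq2 called 2483 in MM1R and 1965 in MM1S, against 1973 and 1476 in edgeR. The members' median log2 fold change was -0.07 in MM1R and 0.22 in MM1S, against 0.01 over all tested genes in each line. Untreated and WA cultures shared passage numbers within a line, and with passage as a block the test called more genes: 14.7% rose and 14.4% fell in MM1R, and 12.5% rose and 11.7% fell in MM1S. Under that block in edgeR 3 members fell in MM1R (VIM, TUBB2B and TUBB4B) and 2 fell in MM1S (VIM and TUBB2B), in addition to the 2 that rose. With the same block in DESeq2 the 2 that rose and the 2 that fell in MM1S were the same genes, but in MM1R VIM and TUBA1C fell, and TUBB2B and TUBB4B were not called. Over all genes DESeq2 with the block called 3424 in MM1R and 2930 in MM1S, against 4094 and 3399 in edgeR.

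TUBA1A gave the clearest response. In MM1S it went from 26.5, 31.9 and 29.98 CPM without WA to 74.3, 50.1 and 59.8 CPM with WA at passages 16, 22 and 23. In MM1R it went from 12.7, 16.9 and 19.1 CPM to 35.2, 37.6 and 40.2 CPM at passages 4, 6 and 7. No WA culture overlapped the untreated cultures of its line. The log2 fold change was 1.06 ± 0.16 in MM1S, 2.08-fold (edgeR adjusted p = 0.0011), and 1.22 ± 0.17 in MM1R, 2.32-fold (edgeR adjusted p = 0.00046). TUBA1A was a minor α-tubulin throughout: its share of α-tubulin reads was 1.06% in untreated and 2.66% in WA-treated MM1S cells, and 0.613% and 2.08% in MM1R. Its coding near copy TUBA1C had log2 fold changes of -0.09 ± 0.20 in MM1S and -0.32 ± 0.20 in MM1R, and neither passed the test (edgeR adjusted p = 0.835 and 0.323). With the passage block the MM1R value of TUBA1C was -0.29 ± 0.11 in edgeR (adjusted p = 0.0669), and in DESeq2 it was -0.30 ± 0.12 and was called (adjusted p = 0.0478).

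TUBB2A, a β-tubulin abundant in neurons, rose in both lines from few reads. It had 41, 66 and 53 reads in untreated MM1S and 83, 86 and 89 with WA (2.12, 3.41 and 2.64 CPM against 4.50, 4.59 and 4.86 CPM). In MM1R it had 72, 69 and 73 reads without and 131, 112 and 98 with WA (3.75, 3.79 and 4.26 CPM against 6.99, 6.30 and 5.96 CPM). The groups of a line did not overlap, and the log2 fold changes were 0.77 ± 0.20 in MM1S (edgeR adjusted p = 0.0274) and 0.71 ± 0.20 in MM1R (edgeR adjusted p = 0.0281). The call was lost in MM1R without any 1 of the 6 MM1R libraries (adjusted p from 0.0504 to 0.120). In MM1S it was lost without the untreated or WA library of passage 16 or 23, or without the untreated MM1R library of passage 6 (adjusted p from 0.0533 to 0.0981), while with the passage block both lines kept it (0.0093 and 0.0094).

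TUBB2B, the near copy of TUBB2A, had lower levels with WA. In MM1S it was at 4.71, 9.87 and 7.56 CPM without and 3.79, 4.70 and 4.80 CPM with WA at passages 16, 22 and 23. In MM1R it was at 11.6, 13.9 and 12.8 CPM without and 11.4, 7.99 and 7.54 CPM with WA at passages 4, 6 and 7. It was lower in 6 of 6 pairs, but at MM1R passage 4 by only 0.02 on the log2 scale. The log2 fold changes of -0.74 ± 0.25 in MM1S and -0.51 ± 0.24 in MM1R did not pass the test without the block (edgeR adjusted p = 0.0776 and 0.181) and passed with it, at -0.70 ± 0.20 and -0.52 ± 0.18 (edgeR adjusted p = 0.0207 and 0.0434). In DESeq2 with the block the MM1R value was not called (adjusted p = 0.0623). The difference between TUBB2A and TUBB2B was not itself tested.

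VIM had lower levels with WA at each passage. It went from 168 to 132, 375 to 266 and 405 to 289 CPM at MM1S passages 16, 22 and 23. In MM1R it went from 452 to 353, 646 to 464 and 657 to 461 CPM at passages 4, 6 and 7. The WA and untreated cultures overlapped in MM1S and in MM1R, while the 6 changes within a passage lay between -0.35 and -0.51 on the log2 scale. Without the block the log2 fold changes were -0.46 ± 0.31 in both lines (edgeR adjusted p = 0.400 in MM1S and 0.376 in MM1R). With the passage block they were -0.44 ± 0.07 in MM1S (edgeR adjusted p = 0.0012), 1.36-fold lower, and -0.45 ± 0.07 in MM1R (edgeR adjusted p = 0.00087). Each untreated and WA pair of a passage is joined in the plot of paired cultures.

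**Figure D3:**
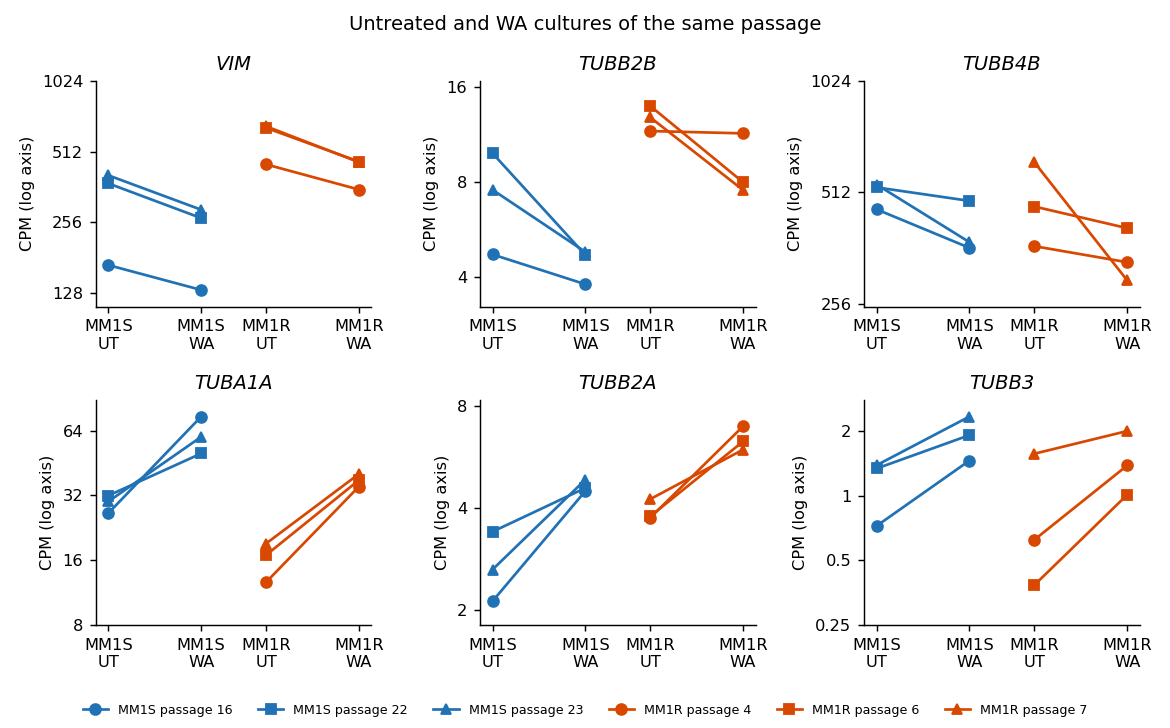
CPM on a log axis of 6 members in untreated and WA cultures, with lines that join the cultures of the same passage of a line. The 6 VIM lines slope down almost in parallel, by 0.35 to 0.51 on the log2 scale, although the levels run from 168 to 657 CPM without WA, and the 6 TUBA1A lines slope up.

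TUBB4B, which supplied most β-tubulin reads, had 461, 528 and 538 CPM without and 363, 486 and 376 CPM with WA in MM1S. In MM1R it had 367, 469 and 617 CPM without and 332, 410 and 296 CPM with WA. It was lower with WA in 6 of 6 pairs, by 0.12 to 1.06 on the log2 scale, and the MM1R pair of passage 7 had the widest gap. The log2 fold changes were -0.32 ± 0.18 in MM1S (edgeR adjusted p = 0.306) and -0.49 ± 0.18 in MM1R (edgeR adjusted p = 0.0919), and with the block the MM1R value was -0.46 ± 0.15 (edgeR adjusted p = 0.0320). In DESeq2 with the block it was -0.47 ± 0.25 and was not called (adjusted p = 0.157).

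The TUBB row TUBB_2 fell in MM1R, from 73.1, 112 and 160 CPM to 55.2, 68.8 and 69.7 CPM at passages 4, 6 and 7. Its log2 fold change there was -0.83 ± 0.23 (edgeR adjusted p = 0.0267), and it was the same with all TUBB rows summed (-0.83 ± 0.23, edgeR adjusted p = 0.0263). The call was lost without the MM1R library of untreated passage 6 or 7 or of WA passage 4, 6 or 7, with an adjusted p of up to 0.134. Without untreated passage 7 its log2 fold change was -0.52. With the passage block and all libraries the MM1R value was -0.77 ± 0.14 in edgeR (adjusted p = 0.0016) and -0.78 ± 0.14 in DESeq2 (adjusted p = 1.29e-06). In MM1S TUBB_2 had 96.1, 106 and 125 CPM without and 61.8, 91.3 and 74.0 CPM with WA, and the log2 fold change was -0.52 ± 0.23 (edgeR adjusted p = 0.168; with the block -0.53 ± 0.14, adjusted p = 0.0147).

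TUBB3, the neuronal β-tubulin used as a marker of neurons, had 7 to 43 reads per library. Its mean was 1.15 ± 0.372 CPM without and 1.91 ± 0.442 CPM with WA in MM1S and 0.861 ± 0.629 against 1.47 ± 0.503 CPM in MM1R. It was higher in 6 of 6 pairs, and the log2 fold changes of 0.72 ± 0.44 and 0.77 ± 0.47 did not pass the test (edgeR adjusted p = 0.344 and 0.308). The changes with WA of these genes, with and without the passage block, are plotted for both lines.

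**Figure D4:**
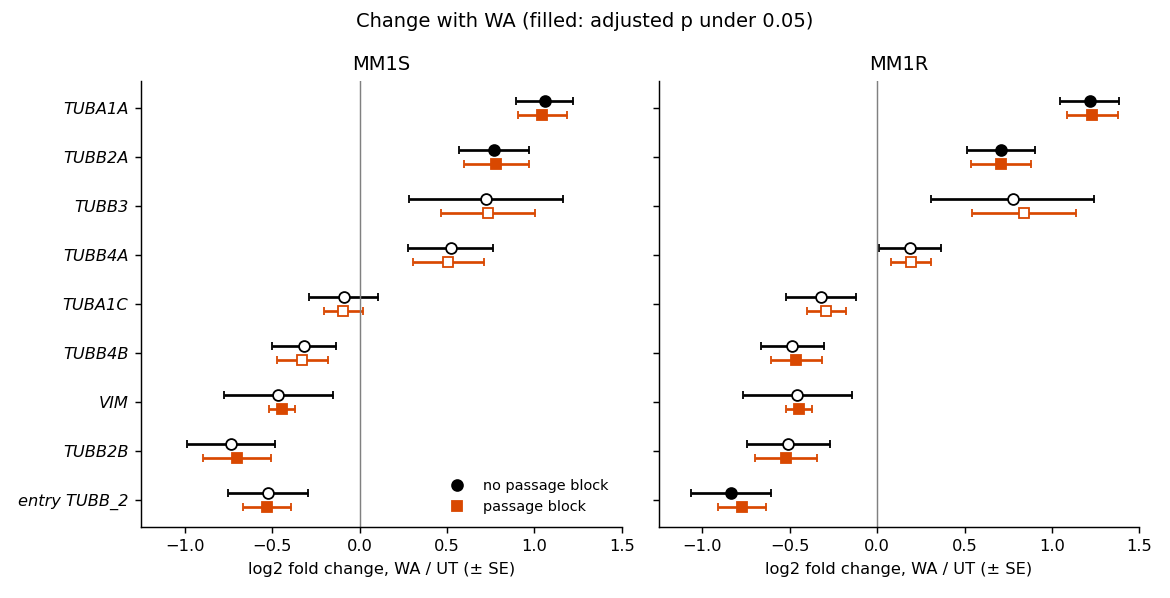
Log2 fold change of WA against untreated cells with its SE, for 8 members and the row TUBB_2, in MM1S (left) and MM1R (right). Black circles are the fit without and orange squares the fit with passage as a block, and filled symbols have an adjusted p under 0.05. TUBA1A at 1.06 and 1.22 and TUBB2A at 0.77 and 0.71 are filled in both fits, and VIM is filled only with the block.

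The shares of the isotypes in the tubulin mRNA pool are given as a description, with no test. They would shift if reads of TUBB were missing from the counts. TUBB4B supplied 80.6% of β-tubulin reads in untreated and 82.01% in WA-treated MM1S cells, and 75.7% and 75.9% in MM1R. All TUBB rows together supplied 17.4% and 15.3% in MM1S and 17.8% and 14.5% in MM1R. The summed β-tubulin level was 632 ± 57.2 CPM without and 498 ± 81.7 CPM with WA in MM1S, and 641 ± 174 and 454 ± 58.8 CPM in MM1R (SD, n = 3). The summed α-tubulin level was 2781 ± 344 and 2392 ± 354 CPM in MM1S and 2705 ± 821 and 1838 ± 303 CPM in MM1R. TUBA1B, which is no member, carried 78.5% of α-tubulin reads in untreated cells of each line, and 76.0% and 74.3% with WA in MM1S and MM1R.

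The effect of WA on the 8 tested members was compared between the lines by the interaction term, MM1R minus MM1S. None of the members was called, and 0 had an unadjusted p under 0.05. No gene at all was called in edgeR with the filter on low counts (0% of 14085 tested, with 97 at an unadjusted p under 0.05 in edgeR, and 1 gene called by DESeq2). Without that filter edgeR called 11 genes, and with the passage block DESeq2 called 6, with 0 members in each. Among the members the difference in log2 fold change ran from -0.34 ± 0.30 for TUBB4A to 0.23 ± 0.34 for TUBB2B. For TUBA1A it was 0.16, with a 95% confidence interval of -0.34 to 0.66, and for VIM 0.01 with an interval of -0.94 to 0.95. These intervals came from the fit without the passage block. With the block in edgeR the difference was 0.19 ± 0.20 for TUBA1A and -0.0036 ± 0.10 for VIM. Between the lines under WA 1.63% of tested genes were higher and 1.41% lower in MM1R, and again 1 member was higher (TUBB4A) and 0 were lower in edgeR (1 lower at an unadjusted p under 0.05), while DESeq2 called 2 higher (TUBB4A and TUBB2B) and 0 lower. Over all genes DESeq2 called 578 in this comparison, against 428 in edgeR.

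Promoters are printed for TUBA1A and TUBB2A, which rose in both lines, and for TUBB2B and VIM, which fell in both lines with the edgeR block, each a gene with a single listed start. They are given as 250 bases before the gene start from RefSeq on GRCh38.p14, each 5′ to 3′ on the gene's own strand. Capitals mark the inverted heat shock pairs GAANNTTC and TTCNNGAA, CCAAT and TATAAA, searched on both strands, so that CCAAT on the other strand reads ATTGG. Heat shock pairs were searched because WA is known to induce heat shock genes.
TUBA1A promoter, chr12:49189081-49189330, - strand: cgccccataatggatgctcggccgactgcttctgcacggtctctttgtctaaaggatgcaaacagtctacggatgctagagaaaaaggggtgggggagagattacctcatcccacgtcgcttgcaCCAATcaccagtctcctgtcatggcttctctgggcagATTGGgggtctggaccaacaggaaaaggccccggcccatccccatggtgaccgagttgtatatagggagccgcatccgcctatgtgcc
TUBB2A promoter, chr6:3157545-3157794, - strand: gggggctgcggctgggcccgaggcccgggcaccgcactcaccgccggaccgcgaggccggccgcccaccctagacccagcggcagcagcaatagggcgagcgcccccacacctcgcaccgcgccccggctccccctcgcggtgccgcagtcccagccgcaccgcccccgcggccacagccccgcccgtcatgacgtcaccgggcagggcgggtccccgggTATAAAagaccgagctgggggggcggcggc
TUBB2B promoter, chr6:3227654-3227903, - strand: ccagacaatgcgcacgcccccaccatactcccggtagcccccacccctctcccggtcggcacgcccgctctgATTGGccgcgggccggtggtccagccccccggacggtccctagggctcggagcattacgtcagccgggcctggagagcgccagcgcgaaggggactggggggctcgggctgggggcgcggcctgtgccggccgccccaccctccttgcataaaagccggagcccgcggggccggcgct
VIM promoter, chr10:17227991-17228240, + strand: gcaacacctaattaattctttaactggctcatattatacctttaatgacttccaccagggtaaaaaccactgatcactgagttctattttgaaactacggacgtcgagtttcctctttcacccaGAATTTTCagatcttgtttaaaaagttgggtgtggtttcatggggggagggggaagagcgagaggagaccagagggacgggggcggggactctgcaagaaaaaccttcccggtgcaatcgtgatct
TUBA1A held CCAAT at 125 and 88 bases before the start, TUBB2A held TATAAA at 30 bases, TUBB2B held CCAAT at 178 bases, and VIM held GAANNTTC at 126 bases before the start. No heat shock pair of these letters lay in the windows of TUBA1A, TUBB2A or TUBB2B, nor in those of TUBB and TUBB4B, which are not printed. TUBB4B held CCAAT at 232, 166 and 103 bases before its start, and TUBB, with 2 listed starts, at 165 bases before 1 of them. TUBA1C, with 3 listed starts, held GAANNTTC at 1 site, which lay 156 and 249 bases before 2 starts with overlapping windows. Of 35116 promoters of the same length, 5.781% held GAANNTTC, 6.618% held TTCNNGAA, 32.01% held CCAAT and 10.72% held TATAAA. A match is a description of the letters only.

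The rest of the tubulin family was measured from a list of 13 further genes, of which 9 were tested. Counts of genes called with WA in this and the later lists stand beside these shares over all tested genes. Without the passage block 7.55% rose and 6.46% fell in MM1R, and 6.25% rose and 4.23% fell in MM1S. With the block in edgeR 14.7% rose and 14.4% fell in MM1R, and 12.5% rose and 11.7% fell in MM1S. TUBG1, γ-tubulin, which nucleates microtubules, fell in both lines, by 0.52 ± 0.14 in MM1S and 0.53 ± 0.14 in MM1R on the log2 scale (edgeR adjusted p = 0.0324 and 0.0240). TUBE1, ε-tubulin of the centriole, rose in MM1R by 1.10 ± 0.32 (edgeR adjusted p = 0.0354). In MM1S its log2 fold change of 0.98 ± 0.32 missed the test (edgeR adjusted p = 0.0639) and passed with the block (0.0118). With the block TUBA1B fell by 0.60 ± 0.10 and TUBA4A by 0.42 ± 0.10 in MM1R (edgeR adjusted p = 0.00095 and 0.0084), against 0.0581 and 0.103 without it. TUBA8, a minor α-tubulin, fell in MM1S with the block (edgeR adjusted p = 0.0397) but not without it (0.0799). TUBA3D, TUBB1, TUBG2 and TUBD1 were called in no comparison, while TUBA3C, TUBAL3 and TUBB8 were at 0 and TUBA3E at no more than 2 reads in every library.

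VIM-AS1, an antisense RNA that overlaps the 5′ end of VIM (chr10:17256238-17272017, - strand), had 30 to 99 reads per library and was called in no comparison. Without a stated strand setting, its reads and those of VIM in the overlap cannot be told apart. Of 24 other intermediate filament genes 8 were tested. LMNB2, a B-type lamin of the nuclear envelope, fell with WA in both lines, by 0.46 ± 0.13 in MM1S and 0.59 ± 0.13 in MM1R on the log2 scale (edgeR adjusted p = 0.0335 and 0.0073). SYNM, synemin, which copolymerises with vimentin, rose in MM1S by 0.69 ± 0.20 (edgeR adjusted p = 0.0373) and in MM1R only with the block (adjusted p = 0.0127, against 0.0697 without). NES, nestin, another partner of vimentin, had 14 to 36 reads in untreated MM1S and 1033 to 1215 in untreated MM1R libraries (log2 fold change 5.73 ± 0.25, edgeR adjusted p = 1.58e-08). With the block 3 genes of this list rose and 2 fell in MM1R, and 2 rose and 2 fell in MM1S. Among 4 tested linkers of intermediate filaments, PLEC, plectin, rose in both lines, by 0.78 ± 0.21 in MM1S and 1.09 ± 0.21 in MM1R (edgeR adjusted p = 0.0282 and 0.0037), and with the block 3 linkers rose in MM1R.

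Tubulin is folded by the chaperonin TRiC, whose 8 subunit genes were all tested. TCP1 rose in both lines, by 0.59 ± 0.13 in MM1S and 0.61 ± 0.13 in MM1R (edgeR adjusted p = 0.0120 and 0.0076). CCT4 and CCT6A rose in MM1S by 0.47 ± 0.13 and 0.45 ± 0.14 (edgeR adjusted p = 0.0346 and 0.0494), and in MM1R only with the block (adjusted p = 0.0073 and 0.0034). None of 11 tested genes for tubulin folding cofactors and prefoldin was called with WA, although 1 was lower in each line at an unadjusted p under 0.05, DESeq2 called 1 lower in MM1S, and with the block 1 fell in each line. None of 4 genes of tubulin mRNA autoregulation was called in any comparison by edgeR or DESeq2 (1 was lower in MM1R in each line comparison at an unadjusted p under 0.05), and TTC5 had log2 fold changes with WA of -0.10 ± 0.23 in MM1S and -0.35 ± 0.23 in MM1R. Of 13 tested tubulin modifying enzymes 2 fell in both lines: TTLL4, a polyglutamylase (by 0.45 ± 0.13 in MM1S and 0.75 ± 0.13 in MM1R, edgeR adjusted p = 0.0444 and 0.0027), and TTLL12 (by 0.43 ± 0.13 and 0.51 ± 0.13, edgeR adjusted p = 0.0460 and 0.0158).

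Of 21 tested microtubule-associated and plus-end proteins 3 rose with WA in both lines. CLASP1, which stabilises plus ends, rose by 0.59 ± 0.13 in each line (edgeR adjusted p = 0.0096 in MM1S and 0.0081 in MM1R). MAPRE2, an end-binding protein, rose by 0.62 ± 0.17 in MM1S and 0.61 ± 0.17 in MM1R (edgeR adjusted p = 0.0369 and 0.0331). MAP1A, a microtubule-stabilising protein of neurons, went from 4 to 9 reads per library without WA to 37 to 96 with WA in MM1S (edgeR adjusted p = 0.0027), and from 0 to 4 reads to 37 to 103 in MM1R (edgeR adjusted p = 0.00099). With the block 4 genes of this list rose and 1 fell in MM1R, and 5 rose in MM1S. MAP7, a kinesin-recruiting protein, was lower in untreated MM1R than in MM1S, with a log2 fold change of -1.08 ± 0.16 (edgeR adjusted p = 0.00056). None of 8 tested genes of the γ-tubulin ring complex and none of 9 tested severing and depolymerising factors was called with WA. At an unadjusted p under 0.05 in edgeR 1 ring complex gene was lower in MM1R and 1 severing or depolymerising gene higher in MM1S, and DESeq2 called 1 gene in each of these. With the block 1 ring complex gene and 2 severing or depolymerising genes fell in MM1R, and 1 of the latter rose in MM1S. Of 10 tested actin cytoskeleton genes VCL, vinculin, and MYH9, non-muscle myosin heavy chain, rose in both lines, VCL by 0.85 ± 0.24 in MM1S and 0.87 ± 0.24 in MM1R, and MYH9 by 0.64 ± 0.11 and 0.63 ± 0.11 (edgeR adjusted p = 0.0359, 0.0289, 0.0027 and 0.0026).

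Of the markers of other cells, COL1A1, a collagen of fibroblasts, rose with WA in both lines, by 2.78 ± 0.52 in MM1S and 2.46 ± 0.47 in MM1R on the log2 scale (edgeR adjusted p = 0.0045 and 0.0039). The 6 fibroblast or stromal markers, a class of cells rich in vimentin, summed to 2.24 to 4.69 CPM without and 3.74 to 20.4 CPM with WA, while COL1A2, COL3A1 and LUM were at 0 in every library and DCN at no more than 1 read. PDGFRB, the only other marker of this class that was tested, did not rise. With the block its log2 fold change was -0.32 ± 0.22 in MM1S and -0.15 ± 0.22 in MM1R (edgeR adjusted p = 0.335 and 0.658). The plasma cell factor IRF4 fell by 0.73 ± 0.18 in MM1S and 0.96 ± 0.18 in MM1R, and SLAMF7 rose by 0.53 ± 0.11 and 0.40 ± 0.11 (edgeR adjusted p = 0.0186, 0.0032, 0.0069 and 0.0260). With the block 5 of the 8 plasma cell markers changed in MM1R and 4 in MM1S, against 2 in each line without it. Their part in the changes of VIM and the tubulins was not tested.

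Among 12321 genes with a mean of at least 1 CPM, those whose log2 CPM followed VIM most closely over the 12 libraries were PCCB, a mitochondrial carboxylase subunit (Pearson's r = 0.963), NETO2 (0.958) and SORD, sorbitol dehydrogenase (0.954). Those most like TUBB4B were TMEM9B (0.967), DUSP11 (0.955) and PRORP (0.954). Among the members, TUBB4B correlated with TUBB_2 at 0.91 and with TUBA1C at 0.83, VIM with TUBB2B at 0.87, TUBB2A with TUBB2B at 0.13, and TUBA1A with TUBA1C at 0.04. These are descriptions over 12 libraries that share lines, passages and treatments, and the points are not independent.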

How the data were processed

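RNA from 12 cultures was sequenced as 2 × 50 bp paired-end reads on a BGISEQ-500. The authors deposited raw counts per gene, made after FastQC 0.11.5 and STAR 2.7.3a on hg19, per the labels and the study's methods. A table of normalized values was not used. The gene annotation, the strand setting and the treatment of multiply mapped reads are not given in the sources used here. Entries with a copy number after the symbol (4716 of 43735) held 0.187% of reads and were kept as rows of their own.

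Groups, passages, the dose of 1 µM and the time of 3 h came from the labels. Counts were fitted in edgeR 4.0.16 (R 4.3.3) with 1 quasi-likelihood model over 12 libraries, trimmed mean of M values scaling, filterByExpr (minimum count 10) and Benjamini-Hochberg adjustment over 14085 genes. Lines were compared at an adjusted p under 0.01 combined with a 2-fold change (1 on the log2 scale), and WA and the interaction at 0.05. Changes within a pair used log2 of CPM plus 0.5. The scripts were tested on simulated counts. DESeq2 1.42.0, other filters and scaling, leaving out each library, and passage as a replicate block were alternatives. Untreated and WA cultures shared the labelled passage number, and the deviations of the 6 same-passage pairs correlated at 0.22 to 0.74, so that the pairing was taken as real. In MM1S, however, passages 22 and 23 were also correlated across numbers, at 0.35 and 0.42. Both values were above the 0.26 of the passage 22 pair itself.

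Genes named were all members, all other tubulins and VIM-AS1. From each further list up to 5 genes called with WA and up to 3 called between untreated lines were named, by size of change where their mean reached 1 CPM, as were the 3 genes most like VIM and most like the most abundant tubulin member. The members and lists were chosen with earlier results of these data known. Coordinates and coding starts came from GENCODE on GRCh37 and promoters from RefSeq on GRCh38.p14.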

Additional observations from a re-analysis of the deposited data

How the results depend on the processing

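Of 935 member log2 fold changes under an alternative, 857 kept their direction and their side of the threshold, 23 lost and 28 gained the call, and 27 reversed, of which 0 were called to begin with. TUBA1A with WA and TUBB4A between the lines kept their calls in all of them. In the counts of members called, higher and lower together, WA gave 5 in MM1R and 4 in MM1S with the replicate block in edgeR, 4 and 4 with it in DESeq2, 1 in MM1S when only the 6 libraries compared were fitted, and 1 and 1 at an adjusted p of 0.01. Between the lines under WA the count was 2 without a filter on low counts and 2 in DESeq2. At an adjusted p of 0.05 with no fold limit it was 3 in both line comparisons. Leaving out 1 library gave 1 to 2 members in WA against untreated in MM1R, in the same comparison in MM1S, and between the lines under WA. The cause of these moves was not tested, except that stricter thresholds call fewer genes by construction. With the block, edgeR and DESeq2 differed in MM1R on TUBB2B and TUBB4B, called by edgeR, and on TUBA1C, called by DESeq2.

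Leaving out 1 library, the untreated line difference on the log2 scale ran from -0.29 to 0.094 for TUBB4B, -0.37 to 0.064 for TUBA1C and -0.23 to 0.32 for TUBB_2, and the change of TUBA1C with WA in MM1S from -0.20 to 0.033. The difference between lines in the effect of WA ran from -0.27 to 0.31 for VIM, -0.26 to 0.086 for TUBB2A, -0.039 to 0.47 for TUBB2B, -0.28 to 0.80 for TUBB3, -0.33 to 0.046 for TUBB4B, -0.42 to 0.0081 for TUBA1C and -0.56 to 0.00053 for TUBB_2. That difference was -0.0036 for VIM with the replicate block and 0.062 for TUBB2A without both MM1S cultures of passage 16, which also put the untreated line difference of TUBB_2 at -0.0017. TUBB2A with WA had adjusted p values of 0.0832 in MM1R and 0.0702 in MM1S without a filter, where VIM fell with 0.0137 and 0.0150.

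The genes called over the whole table moved by more than 1.5 times from 419 (untreated lines), 1973 (WA in MM1R), 1476 (WA in MM1S) and 428 (lines under WA). The block gave 4094 and 3399 with WA in edgeR and 3424 and 2930 in DESeq2. An adjusted p of 0.01 gave 812 and 556. The line comparisons gave 811 and 819 without a filter, 234 and 222 when each library had to hold 10 reads of a gene, 1681 and 1690 at an adjusted p of 0.05 with no fold limit, and 755 and 817 without both MM1S cultures of passage 16, when WA in MM1S gave 690. Leaving out 1 library gave 268 to 537, 950 to 2396, 726 to 1621 and 264 to 649. Depth limits TUBB3, TUBB6 and TUBB2A, which had at most 43, 8 and 131 reads in a library.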
